A study of Rattus norvegicus with 2 samples.

Results

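The genes described here are 10 genes of heart muscle, measured in total RNA from rat lung: *Myh6*, *Myh7*, *Tnnt2*, *Tnni3*, *Actc1*, *Nppa*, *Myl7*, *Myl4*, *Pln* and *Ryr2*. They were chosen by symbol, as all probe sets whose platform annotation gave exactly 1 gene symbol from these 10. This left 15 of 31042 probe sets, for 9 of the 10 genes. *Actc1*, cardiac alpha-actin, had no probe set of its own. It was listed together with *Acta2*, smooth muscle alpha-actin, for 5 probe sets, and 2 more listed *Myh6* together with *Myh7*; these 7 were given to no gene.

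The study asked how reproducible global expression values are between 2 experimenters. Each of them prepared 1 Affymetrix Rat Genome 230 2.0 array from rat lung, with column-purified RNA and biotin-labelled cRNA, and the arrays are called here experimenter 1 and experimenter 2 after the running numbers in the titles. Strain, sex, age, number of animals, treatment, which part of the lung or its large vessels was taken, and whether both experimenters used the same lung or RNA are not given in the labels. Each value is a deposited log2 RMA value (robust multi-array average, 1 summary of the probes of a probe set), and each difference is experimenter 2 minus experimenter 1. With 1 array per experimenter there was no replicate error, no test was possible, and a size of 1.5-fold (0.58 on the log2 scale) was used to describe differences.

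In rodents, heart-like muscle runs from the left atrium into the wall of the pulmonary veins and along their branches inside the lung, so lung tissue can carry RNA of cardiac muscle cells. Their contraction is driven by myosin heavy and light chains pulling on actin, is switched by calcium through the troponin complex, and depends on calcium released from the sarcoplasmic reticulum. Atrial muscle is set apart from ventricular muscle by its own myosin light chains and by the hormone atrial natriuretic peptide. In lung RNA from bulk tissue, fewer cells of a type and less RNA per cell cannot be told apart.

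The promoters of 2 of these genes are shown, *Tnni3* because it was the 1 gene past 1.5-fold and *Nppa* because it is the classical gene of atrial muscle. Both are from RefSeq on build GRCr8, on the plus strand, from 250 bases before the start site to 50 after, and both printed 5′ to 3′. Capitals mark a match to AGATAA, a form of the site bound by GATA factors, in *Tnni3* at chr1:78342321-78342620, here on the opposite strand as TTATCT. They also mark a TATAAA box in *Nppa* at chr5:163711934-163712233. Only this form of the GATA site was searched, and the TGATAA in the *Nppa* sequence, another form, is unmarked.
Tnni3: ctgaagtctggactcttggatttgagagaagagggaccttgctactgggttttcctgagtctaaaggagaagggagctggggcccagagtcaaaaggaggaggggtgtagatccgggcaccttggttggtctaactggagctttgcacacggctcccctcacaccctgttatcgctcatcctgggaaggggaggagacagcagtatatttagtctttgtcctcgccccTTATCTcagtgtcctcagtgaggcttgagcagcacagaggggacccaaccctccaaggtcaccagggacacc
Nppa: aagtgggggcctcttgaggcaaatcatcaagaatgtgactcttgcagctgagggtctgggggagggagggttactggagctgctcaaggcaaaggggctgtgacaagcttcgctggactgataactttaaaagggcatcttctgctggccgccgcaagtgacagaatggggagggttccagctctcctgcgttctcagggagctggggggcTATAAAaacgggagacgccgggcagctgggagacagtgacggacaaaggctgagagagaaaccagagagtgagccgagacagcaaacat

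Each of the 10 genes had a promoter in the RefSeq table, with 11 entries in all because *Tnnt2* had a pair. On both strands, TATAAA was found in 2 of the 11 (*Nppa* and *Myl4*) and in 14.2% of all 33469 promoters. AGATAA was found in 2 (*Tnni3* and *Tnnt2*) against 11.6% of all promoters, and other forms of the GATA site were not counted. The CArG box, searched as CCWWWWWWGG, was found in 1 (*Actc1*) against 1.64%. The MEF2 site, searched as YTAWWWWTAR, was found in 0 of the 11 against 3.29%. Here W is A or T, Y is C or T, and R is A or G. Sites that depart from these patterns by a letter were not counted. A match is only a match of letters in this window.

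All 9 measured heart muscle genes lay below the median of all probe sets on both arrays, by each of their 15 probe sets. The median of all probe sets was 6.32 and 6.28 on the arrays of experimenters 1 and 2, and the lower quartile 4.42 and 4.37. Over the 9 genes, each taken by its brightest probe set, the median level was 3.76 for experimenter 1 and also 3.76 for experimenter 2, and the median percentile, averaged over the arrays, was 15.03. Of the 9 genes 0 were at or above the median on both arrays, against 66.1% of all 14217 genes taken the same way, and 5 were below the lower quartile on both, against 14.1% of all genes. By level, these 9 genes thus did not stand out in this lung RNA, and *Actc1*, cardiac alpha-actin, was not among them. RMA gives no detection call, so whether a gene at such a level was expressed cannot be said. A level also depends on the binding strength of the probes, so the order below is one of signal, not of transcript number.

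**Figure D1:**
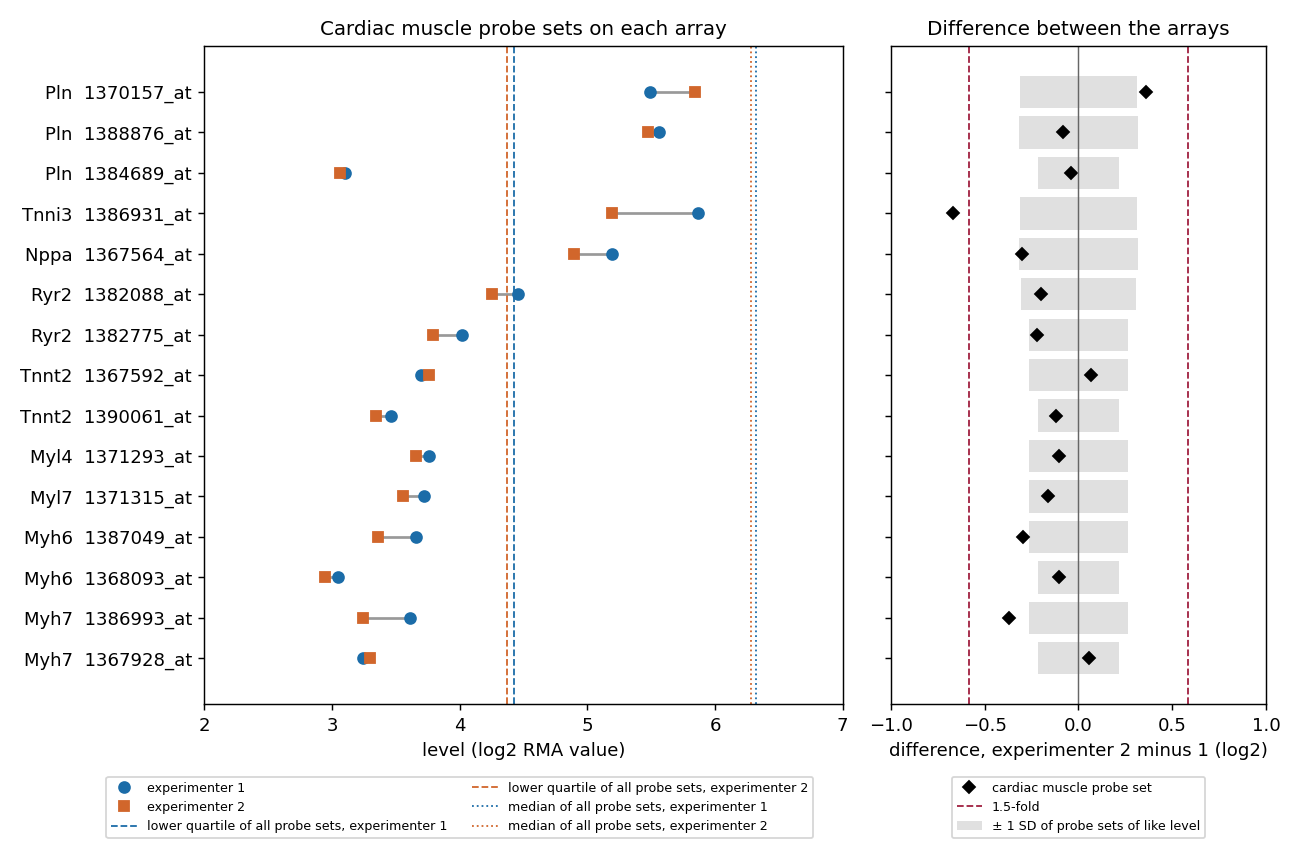
Left, level (log2 RMA value) of each of the 15 heart muscle probe sets for experimenter 1 (circles) and experimenter 2 (squares), with each array's lower quartile and median over all probe sets as vertical lines; right, difference between the arrays on the log2 scale, with a grey band of 1 SD of all probe sets in the same 1 of 10 bins of mean level. All 15 lie left of both medians, and *Tnni3* alone passes the 1.5-fold line.

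The myosin heavy chains are the motor proteins of the thick filament. *Myh6* encodes the alpha chain, the main chain of atria and of the whole adult rat heart. Its brighter probe set, 1387049_at, measured 3.66 for experimenter 1 and 3.36 for experimenter 2 (percentiles 13.3 and 9.90), and the other, 1368093_at, measured 3.05 and 2.94 (percentiles 4.60 and 4.06). *Myh6* was thus in the lowest 14% of values or lower by both probe sets on both arrays. *Myh7* encodes the beta chain, found in ventricle and in slow skeletal fibres. It measured 3.61 and 3.24 by 1386993_at (percentiles 12.5 and 8.01), and 3.24 and 3.30 by 1367928_at (percentiles 7.23 and 8.79). The pair of probe sets for *Myh7* differed in opposite directions, by -0.37 and by 0.055. *Myh6* and *Myh7* lie next to each other on chromosome 15 and are close in sequence, so their probe sets may not separate them fully.

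The atrial light chains also lay low on both arrays. *Myl7*, the regulatory light chain of atrial myosin, measured 3.72 for experimenter 1 and 3.56 for experimenter 2 by its 1 probe set, 1371315_at, at percentiles 14.3 and 12.8. *Myl4*, the essential light chain of atrial myosin, measured 3.76 and 3.66 by 1371293_at, at percentiles 14.9 and 14.4. Both genes were below the lower quartile of each array, and their differences of -0.16 and -0.10 were well under 1.5-fold.

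The troponin complex sits on the thin filament and makes contraction depend on calcium. *Tnnt2*, cardiac troponin T, which anchors the complex to tropomyosin, measured 3.70 and 3.76 by 1367592_at (percentiles 14.0 and 16.1) and 3.46 and 3.34 by 1390061_at (percentiles 10.4 and 9.58). It was below the lower quartile on both arrays, and its probe sets differed by 0.065 and by -0.12. *Tnni3*, cardiac troponin I, the inhibitory subunit, had a higher signal: its 1 probe set, 1386931_at, measured 5.86 for experimenter 1 and 5.20 for experimenter 2, at percentiles 44.3 and 36.0. This was the highest of the 15 probe sets for experimenter 1. Its percentile was above that of *Tnnt2* on each array.

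*Nppa* encodes atrial natriuretic peptide, a hormone stored in atrial muscle cells that lowers blood volume and relaxes vessels. By its 1 probe set, 1367564_at, it measured 5.19 for experimenter 1 and 4.90 for experimenter 2, at percentiles 35.4 and 32.1. Its signal was therefore above those of the atrial light chains on both arrays, though still below both medians.

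Calcium cycling was represented by *Pln* and *Ryr2*. *Pln* encodes phospholamban, a small membrane protein that restrains the calcium pump of the sarcoplasmic reticulum and is also made in smooth muscle. It measured 5.49 and 5.85 by 1370157_at (percentiles 39.3 and 44.5), 5.56 and 5.48 by 1388876_at (percentiles 40.2 and 39.6), and 3.10 and 3.06 by 1384689_at (percentiles 5.34 and 5.53). The first and second were near each other in level, the last was near the bottom of the array, and 1370157_at was the highest of the 15 probe sets for experimenter 2. *Ryr2* encodes the calcium release channel of heart muscle and brain. It measured 4.45 and 4.26 by 1382088_at (percentiles 25.4 and 23.5), and 4.02 and 3.79 by 1382775_at (percentiles 19.1 and 16.6). By the brighter one, *Ryr2* lay just above the lower quartile for experimenter 1 and just below it for experimenter 2.

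Ordered by percentile averaged over both arrays, the genes were *Pln* (41.9), *Tnni3* (40.2), *Nppa* (33.8), *Ryr2* (24.4), *Tnnt2* (15.03), *Myl4* (14.7), *Myl7* (13.6), *Myh6* (11.6) and *Myh7* (10.3). The gaps between *Nppa* and *Ryr2* (9.31 points) and between *Ryr2* and *Tnnt2* (9.42 points) were larger than the change of either neighbour between the arrays, which was at most 3.25 points. *Pln* and *Tnni3* changed places between the arrays and were 1.75 points apart on average. *Tnni3* and *Nppa* were 6.40 points apart, less than the 8.22 points by which *Tnni3* itself changed. From *Tnnt2* to *Myh7* each gap was 1.96 points or less, and at least 1 gene of each neighbouring pair changed by more than that gap between the arrays.

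Between the arrays, the heart muscle genes had a median difference of -0.20, with 7 of 9 lower for experimenter 2 (7 of 9 also after median centring, loess or quantile normalization), against a median of -0.049 and 58.7% lower over all genes. By probe set, 12 of 15 were lower, against 58.7% of all probe sets, and 11 of 15 after each of these scalings, against 49.9% to 51.4%. Of the 9 genes, 1 differed by at least 1.5-fold, *Tnni3*, which was lower for experimenter 2. Of all genes 3.24% passed this size in either direction, 1.93% higher and 1.31% lower for experimenter 2, and of the 4501 genes below the median on both arrays 3.87% passed it. By probe set it was 1 of 15 against 4.35% of all. Its difference was -0.67, which is 1.59-fold lower for experimenter 2. *Tnni3* had no second probe set to set beside this value. Probe sets of its level varied widely. With all probe sets split by mean level into 10 bins, those in the bin of *Tnni3* had an SD of the difference of 0.31. This puts *Tnni3* at -2.14 SD, counted from no difference and not from the bin's median difference of -0.045. Of those 3104 probe sets, 6.44% were past 1.5-fold in either direction. None of the 9 genes reached 2-fold, against 0.274% of all genes.

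The next largest differences were -0.37 for *Myh7*, 0.36 for *Pln*, -0.30 for *Nppa* and -0.30 for *Myh6*, each from the brightest probe set. Counted in the same way from no difference, 11 of the 15 probe sets differed by less than 1 SD of the probe sets of like level. Another 3 differed by between 1 and 2 SD, and 1, that of *Tnni3*, by more. For the positive difference of *Pln*, the other probe sets gave -0.084 and -0.041. Of the 5 genes with several probe sets, 3 had probe sets in both directions (*Myh7*, *Pln* and *Tnnt2*), and *Myh6* (-0.30 and -0.10) and *Ryr2* (-0.20 and -0.22) were lower by each. Summed on the linear scale over the 9 genes, the signal was 226 for experimenter 1 and 201 for experimenter 2, and without *Tnni3* it was 168 and 164.

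**Figure D2:**
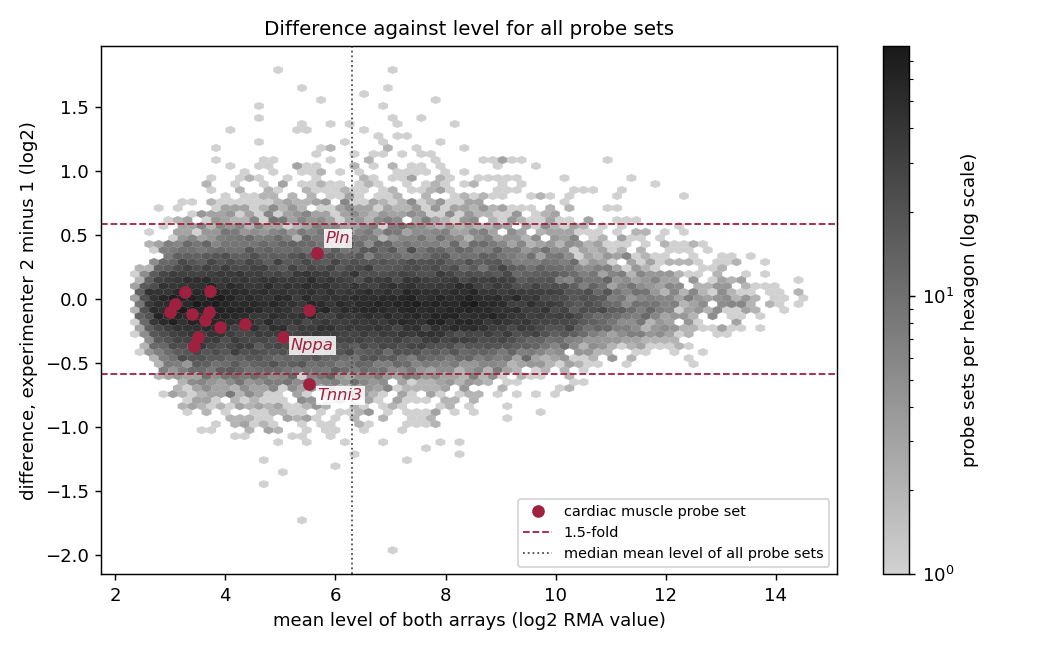
Difference between the arrays (log2, experimenter 2 minus experimenter 1) against the mean level of both arrays (log2 RMA value), with all 31042 probe sets as grey hexagons shaded by their number and the 15 heart muscle probe sets as red points. The heart muscle probe sets lie left of the dotted median level, and *Tnni3* at -0.67 lies below the lower 1.5-fold line.

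Other genes of heart muscle were followed through lists, whose counts are to be read against the 66.1% of all genes at or above the median on both arrays and the 3.24% past 1.5-fold. Among 14 measured genes of the sarcomere and Z-disc outside the 10, 3 were at or above the median on both arrays, and the median percentile was 28.9. *Tpm1*, a tropomyosin also abundant in smooth muscle, was highest at 10.92 and 10.85, and *Myoz2*, a calcineurin-binding Z-disc protein, was lowest at 2.77 and 2.74. The others at or above the median were *Mybpc3*, cardiac myosin-binding protein C, at 7.29 and 7.09, and *Ldb3* at 7.02 and 6.89 by its brightest probe set. Their percentiles were 61.5 and 58.4, against a median of 66.8 over all genes. *Myom2* and *Myom1*, myomesins of the M-band, differed in opposite directions, at 3.54 and 4.33 (0.79) and at 4.59 and 3.92 (-0.68), and were the 2 of 14 past 1.5-fold. The natriuretic peptide system around *Nppa* had 2 of 5 measured genes at or above the median. *Npr1*, the receptor for atrial natriuretic peptide, was highest at 9.40 and 9.13 and *Nppc*, the C-type peptide, lowest at 3.27 and 3.26, and *Npr3*, the clearance receptor, differed most at 0.29. 

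Calcium handling genes besides *Pln* and *Ryr2* had 6 of 12 at or above the median, a lower share than the 66.1% of all genes, and 0 of 12 past 1.5-fold. Of these 12, only 4 were lower for experimenter 2, against 58.7% of all genes, and 2 after each of the 3 scalings. *Camk2d*, a calcium-dependent kinase, measured 10.57 and 10.63, *Trdn*, the junctional protein triadin that partners the release channel, 3.03 and 3.001, and *Srl*, sarcalumenin, differed most at 0.39. Heart muscle transcription factors had 5 of 11 at or above the median; *Tbx5*, which also acts in lung development, was highest at 8.53 and 9.20 and the 1 past 1.5-fold (0.67), and *Irx4* was lowest at 3.74 and 3.47. Ion channel and gap junction genes had 6 of 12 at or above the median, from *Gja1*, connexin 43, at 10.55 and 10.62 to *Kcna5*, an atrial potassium channel, at 4.10 and 4.27, with *Kcnd3*, a potassium channel, past 1.5-fold at -0.61. Its second probe set gave 0.18, and after each of the 3 scalings 0 of 12 were past 1.5-fold. Energy genes of heart muscle had 6 of 12 at or above the median and 0 past 1.5-fold. All 12 were lower for experimenter 2, with a median of -0.15, against 58.7% of all genes. After median centring, loess or quantile normalization 9 of 12 were lower, against 49.9% to 51.4% of all probe sets. The energy genes ran from *Slc25a4*, the mitochondrial nucleotide carrier, at 11.09 and 10.98 to *Ckmt2*, mitochondrial creatine kinase, at 3.60 and 3.47. *Cox7a1*, a cytochrome oxidase subunit, differed most at -0.31. Of sarcomere and Z-disc genes 9 of 14 were lower for experimenter 2, of transcription factors 6 of 11, and of ion channel and gap junction genes 9 of 12.

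Atrial and ventricular genes were also mostly dim. The atrial list, which holds *Myl7*, *Myl4* and *Nppa* among its 7 genes, had 0 at or above the median and a median percentile of 30.2. *Kcnj3*, a subunit of the acetylcholine-gated potassium channel, was its highest at 6.03 and 5.70, and *Myl7* its lowest. The ventricular list had 1 of 5 at or above the median, *Hey2*, a transcription factor also made in vessels, at 7.34 and 7.62, and a median percentile of 23.0; *Myl3*, the ventricular essential light chain, differed most at 0.36. No gene of either list was past 1.5-fold.

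For comparison with muscle types, skeletal muscle genes had 1 of 19 at or above the median and a median percentile of 21.0, and smooth muscle genes 11 of 12 and 81.9, against 0 of 9 and 15.03 for the heart muscle genes. *Myh1*, a fast myosin heavy chain, was the skeletal gene above the median, at 10.13 and 10.01 by its brightest probe set. The identifier of this probe set marks shared probes, so its signal may not come from *Myh1* alone. Probe sets of *Myh1* without such a mark measured 9.15 and 9.54, and 8.12 and 8.81, also above both medians. *Myh4* was lowest of the skeletal list at 2.67 and 2.64. *Tnni1*, slow skeletal troponin I, which the fetal heart also makes, differed by -0.68 (5.64 and 4.96), much as *Tnni3* did, but its second probe set differed by 0.11. In smooth muscle *Tagln*, transgelin, was highest at 11.71 and 11.61, *Kcnmb1*, a potassium channel subunit, lowest at 3.75 and 3.77, and *Myh11*, smooth muscle myosin, differed most at -0.41. Lower for experimenter 2 were 10 of 12 smooth muscle genes and 12 of 19 skeletal muscle genes, against 58.7% of all genes. After scaling, 7 to 10 of the 12 smooth muscle genes were lower. Among 14 measured paralogues of the heart muscle genes, 3 were at or above the median, the highest being *Actg2*, an enteric smooth muscle actin, at 9.56 and 9.78, and 1, *Tnni1*, was past 1.5-fold.

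**Figure D3:**
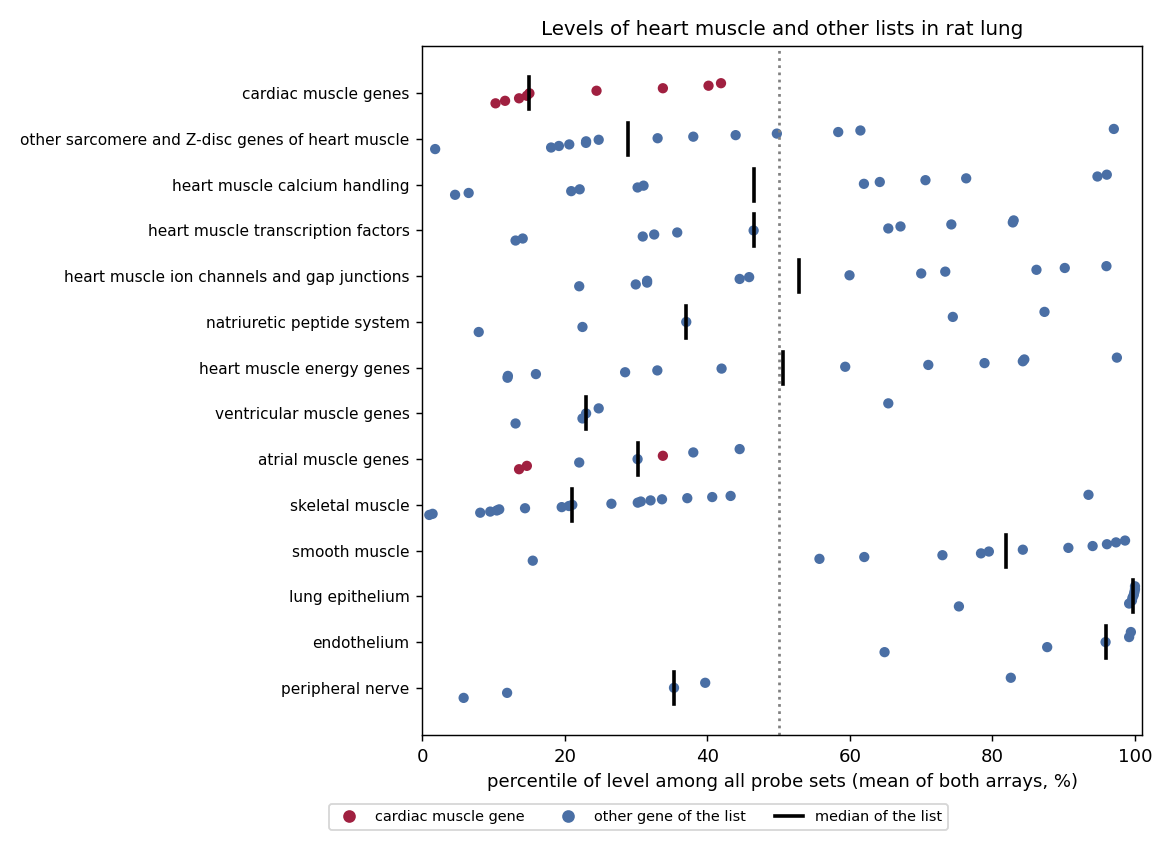
Percentile of level among all probe sets (mean of both arrays) for each gene of the lists, by its brightest probe set, with black bars at list medians and a dotted line at 50. The 9 heart muscle genes (red) all lie under 42, while smooth muscle genes have a median of 81.9 and lung epithelial genes of 99.7.

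For the labelled tissue, 8 of 8 lung epithelial genes and 5 of 5 measured endothelial genes were at or above the median on both arrays, against 66.1% of all genes, and their median percentiles were 99.7 and 95.9 against 66.8 over all genes. *Scgb1a1*, the club cell secretoglobin, measured 14.37 and 14.44, *Foxj1* of ciliated cells was lowest of its list at 8.15 and 8.30, and *Hopx* differed most at 0.33. *Ramp2* of endothelium measured 12.47 and 12.48, and *Calcrl* was lowest of its list and past 1.5-fold, at 7.82 and 7.07 (-0.74). Peripheral nerve genes had 1 of 5 at or above the median. *Mbp* (-0.60), *Sox10* (-0.66) and *Nefm* (-0.66) were past 1.5-fold and lower for experimenter 2, as were *Calcrl* and *Tnni3* (2 of 5 nerve genes after each scaling). Of all genes 1.31% were past 1.5-fold in this direction and 3.24% in either. The other 2 nerve genes were higher for experimenter 2, *Prph*, peripherin, by 0.52 and *Nefl*, the lowest of the list at 2.91 and 3.28, by 0.37, and the dimmest probe set of *Mbp* differed by 0.070. The summed linear signal of the 5 nerve genes came to 662 and 463, and without *Mbp* to 108 and 97.8. The gap between the 3′ and 5′ control probe sets grows as labelled RNA is shortened. For *Actb* it was 2.15 and 2.71, for *Hk1* 1.13 and 1.36, and for *Gapdh* 0.30 and 0.26. It was thus larger for experimenter 2 by *Actb* and *Hk1* and changed little by *Gapdh*, each with 1 probe set per end. The part of nerve RNA or of these gaps in the difference of *Tnni3* was not tested.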

How the data were processed

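The 2 arrays were deposited by the authors as log2 values made with RMA, per the submitters' processing notes; RMA's version and annotation and which arrays were normalized jointly were not given in the sources used here, and the log base was taken as 2 from the range of 2.26 to 14.51. RMA forces arrays to a common distribution, which hides differences in total RNA. Of 31099 probe sets, 57 controls were set apart. Of the other 31042, 20826 had 1 gene symbol, 436 several and 9780 none, and 20758 were matched by Entrez identifier to RefSeq assembly GRCr8. Percentiles were taken over all 31042 on each array, and the brightest probe set by mean level stood for each gene. The genes and the 14 other lists were chosen with earlier results of these data known. Genes named were every member, and of each list the highest, the lowest, the most different and all past 1.5-fold. *Mybpc3*, *Ldb3* and *Prph* were named besides these after their values were seen. *Nppa* was likewise chosen for its promoter after its values were seen. No gene was named for a like pattern, since 2 arrays give none. Alternatives were median centring, loess (fraction 0.3), quantile normalization, other probe set choices, filters, naming and thresholds. Python 3.11.15, numpy 2.4.6, pandas 2.3.3, statsmodels 0.14.6 and matplotlib 3.10.9 were used, tested on simulated data. The number of arrays limits the precision.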

Additional observations from a re-analysis of the deposited data

How the results depend on the processing

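No paired analysis was possible because there is a single array on each side, and none could be left out. The median difference of the heart muscle genes stayed negative under its 8 alternatives, from -0.30 to -0.12; 3 scalings gave -0.15, -0.14 and -0.14. No setting put a gene at or above the array median, and none could, since all 15 probe sets lay below it. The median percentile of 15.03 became 40.2 over the 3 genes at or above the lower quartile, which keeps only brighter genes, and 8.58 among genes in place of probe sets. The count past 1.5-fold stayed at 1 except at 2-fold, where it was 0. As *Tnni3* has 1 probe set, the choice of probe set could not change its value. *Tnni3* ranged from -0.63 to -0.62 after scaling. Of 15 probe set differences, 1 changed sign after each scaling, the dimmest of *Pln*, to between 0.011 and 0.015, so that 11 of 15 were lower, against 51.4% of all probe sets after quantile normalization. The counts of the other lists after scaling were chosen after seeing the data. None of the 15 identifiers marks shared probes, so leaving such probe sets out changed nothing. Without detection calls, low signal limits all 9 genes.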

Other observations

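The genes that flank the 10 heart muscle genes were taken by gene order in RefSeq and chosen after the data were seen. They included 13 measured protein-coding genes outside the 10. Of these, 5 were at or above the median on both arrays, against 66.1% of all genes. Their median percentile was 42.8, against 66.8 over all genes. *Nppb*, the B-type natriuretic peptide gene next to *Nppa* on chromosome 5, measured 4.21 and 4.21, at percentile 22.5 against 33.8 for *Nppa*. *Tnnt1*, slow skeletal troponin T, next to *Tnni3* on chromosome 1, measured 3.35 and 3.39, and *Dnaaf3*, a dynein assembly factor on its other side, 5.90 and 5.57. The neighbour of *Pln* that was measured, *Mcm9*, a DNA helicase of the MCM family, differed by 0.59 (5.24 and 5.83). This was past 1.5-fold, as were 3.24% of all genes in either direction.

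The 5 probe sets listed for both *Acta2* and *Actc1* spanned percentiles 4.56 to 78.6, and the 2 listed for both *Myh7* and *Myh6* lay at 13.8 and 26.5. They cannot be assigned to either gene of the pair.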
